A study of Mus musculus with 8 samples.

Results

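Brains of wild-type mice with experimental autoimmune encephalomyelitis were compared after the melanocortin agonist NDP-MSH and after phosphate-buffered saline (PBS), over 22180 genes. The comparison took 4 of the series' 8 arrays, 2 from wild-type mice given NDP-MSH and 2 from wild-type mice given PBS, and each value below is the mean of the probe sets that carry exactly 1 gene symbol. All mice were immunized with MOG, the myelin oligodendrocyte glycoprotein, and brain tissue was taken on day 14, at the disease maximum. Treated mice received 5 µg of NDP-MSH each into a vein on days 8, 10 and 12. The wild-type mice, known by their black coat, carry a working Mc1r. The other 4 arrays came from yellow C57BL/6Je/e mice (e/e below), whose allele inactivates Mc1r, on the same day and with the same 2 treatments. These arrays entered the fit and the test of the difference between genotypes. Sex and age were not given in the labels used here. The labels also do not say that the 2 arrays of a group are different mice, and the p-values then cover only how far these arrays spread, which may be technical. The sample descriptions carry a number shared by both wild-type PBS arrays and another shared by both wild-type NDP-MSH arrays. Its meaning is not stated, so whatever it marks cannot be told apart from treatment.

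NDP-MSH is a long-lived analog of alpha-MSH, a peptide cut from pro-opiomelanocortin. Melanocortin receptors couple to Gs and raise cAMP, which in many cells induces early genes such as those of the NR4A nuclear receptors. In inflamed tissue melanocortins are known for dampening NF-kappaB signalling and leukocyte entry. In this disease model, T cells primed against myelin enter the central nervous system and release interferon gamma, microglia and infiltrating macrophages respond to it, and myelin is lost. The comparison asks which brain transcripts NDP-MSH changed in mice with a working receptor.

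Values are log2, with base 2 assumed, and each row is centred on its median over the 8 arrays, so a value of 0 is the middle of the series and no absolute level can be read. Differences are NDP-MSH minus PBS on the log2 scale, given ± SE from the limma fit over 8 arrays, and a gene is said to rise or fall only at a Benjamini-Hochberg adjusted p under 0.05 over all genes. The rounding left in the values places 15 of 16 pan-neuronal, 18 of 19 astrocyte and 15 of 22 myelin genes at a signal of 8 or above before centring and 0 of 22 T cell genes, so the markers of brain tissue are present. Fewer cells of a type and less RNA per cell cannot be told apart in whole tissue.

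Transcripts of brain regions separated the treatment groups. All 38 measured genes of the cerebellar granule cell list were lower after NDP-MSH, 36 of them in both arrays. Of all 22180 genes 9981 had a lower mean, and 18.9% were lower in both arrays. The granule cell list medians were -0.13 and 0.17 after PBS and -0.83 and -0.63 after NDP-MSH. All 21 Purkinje cell genes were lower too, with list medians of 0.00 and 0.17 after PBS and -0.77 and -0.76 after NDP-MSH. Their defining markers followed: Gabra6 lay at -0.21 and 0.08 after PBS and at -3.35 and -2.83 after NDP-MSH, Cbln3 at -0.01 and 0.26 against -3.19 and -2.67, and Car8 at 0.01 and 0.04 against -2.60 and -2.03. The pituitary hormone genes Prl and Gh reached 6.97 and 6.54 in the first wild-type NDP-MSH array and stayed below 0 in the second. The olfactory bulb gene Cdhr1 was highest in wild-type NDP-MSH 2, at 2.23, where the median of the olfactory list was 0.58 against 0.00 in the other NDP-MSH array. Xist, expressed from the inactive X, took values of 0.56, 0.67 and 0.62 in 3 wild-type arrays and of -0.56 in wild-type NDP-MSH 2, and the Y-linked Eif2s3y lay between -0.19 and 0.02 in all 4. The 114 measured genes of the cerebellar, pituitary and olfactory lists were therefore set aside, and the other 22066 genes are described here.

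Outside these lists 17 genes fell and 1 rose. Over all 22180 genes 38 fell, which is 0.171%, and 1 rose, which is 0.00451%; with the regional lists set aside the falls were 0.077% of 22066. The rise was Ifitm2, an interferon-induced membrane protein gene. The differences of the falls ran from -1.504 (Hes3) to -0.66 (Sbk1) on the log2 scale. At an unadjusted p under 0.05, 1478 of the genes outside the lists were higher and 1188 lower. The calls depended on which arrays entered: without wild-type PBS 2, wild-type NDP-MSH 1 or wild-type NDP-MSH 2 none of the 18 passed the limma test, without wild-type PBS 1 only Cep76 passed, and without either e/e NDP-MSH array 4 passed (Hes3, Icmt, Kcng4 and Plekhd1). Without either e/e PBS array 17 genes fell and 9 rose, Lyve1, Neurod6 and Khdrbs3 among the rises. After quantile normalization 7 fell and the rise was Spink10 (0.80), not Ifitm2. At a signal of 8 or above 25 fell and 3 rose. None of the 18 changed direction under the 16 or 17 alternatives run on each, and the share of cerebellar tissue in their differences was not tested.

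**Figure D1:**
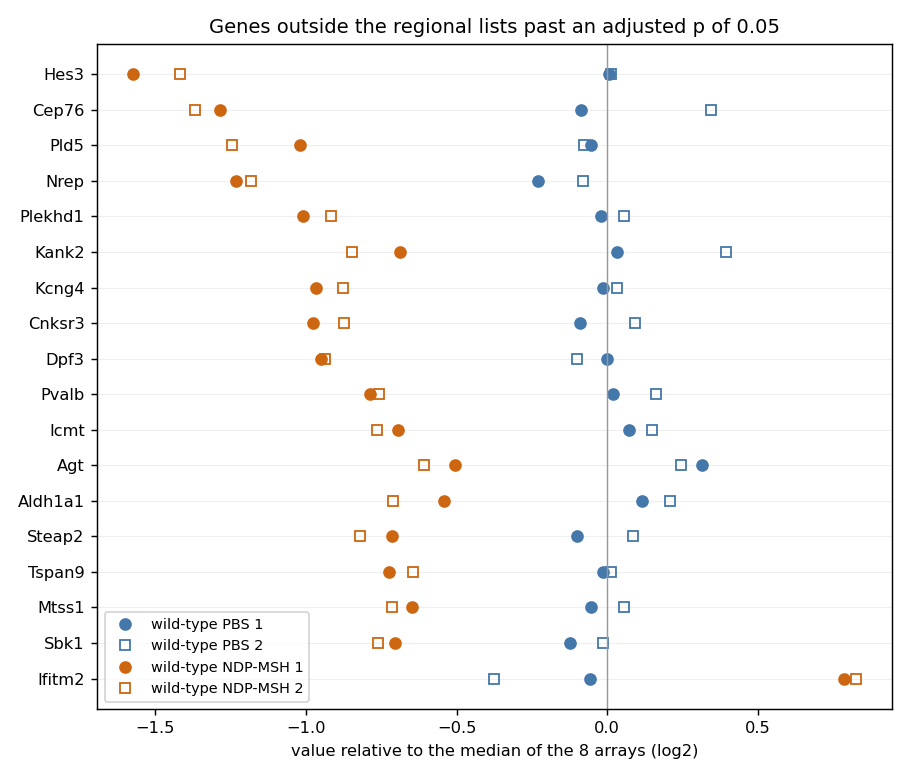
Values of the 18 genes outside the regional lists that passed an adjusted p of 0.05, in log2 relative to the median of the 8 arrays, with 1 point for each wild-type array (blue PBS, orange NDP-MSH, filled replicate 1, open replicate 2). In all 17 genes that fell both NDP-MSH points lie left of both PBS points, from Hes3 at -1.57 and -1.42 to Sbk1 at -0.70 and -0.76, and Ifitm2 lies to the right at 0.79 and 0.83.

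Ifitm2 stood at -0.06 and -0.38 in the PBS arrays and at 0.79 and 0.83 in the NDP-MSH arrays. Both NDP-MSH arrays were high and the groups did not overlap, and the gene rose by 1.02 ± 0.13, or 2.03-fold (limma, adjusted p = 0.0428). IFITM proteins sit in endosomal and plasma membranes and block the entry of enveloped viruses, and their genes are induced by interferons of both types. The call ended under 10 of 16 alternatives, among them the loss of any 1 wild-type array, with differences between 0.86 and 1.18. Other family members did not pass. Ifitm3, the best studied antiviral member, lay at -0.18 and 0.18 after PBS and at 0.60 and 0.67 after NDP-MSH (0.63 ± 0.34, adjusted p = 0.474), and it was named after its value was seen. The e/e PBS arrays, whose spread enters this SE, lay at -0.94 and 0.28. Ifitm6 lay at -0.17 and 0.02 against 0.36 and 0.30 (0.41 ± 0.10, adjusted p = 0.238). Of the 6 members measured 4 were higher in both arrays, where 25.3% of all genes were, with a family median of 0.27 against 0.02 over all genes. Sharing of probes between these close paralogs was not tested.

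The promoters of the pair with the larger differences are shown because interferon-induced genes carry response elements there. The windows run from 250 bases before to 50 after the start site, from RefSeq on GRCm38.p6, and lie on the minus strand of chromosome 7, at chr7:140955912-140956211 for Ifitm2 and chr7:141010695-141010994 for Ifitm3. Capitals mark matches to GAAANNGAAA, an interferon-response-like core searched on both strands.
Ifitm2: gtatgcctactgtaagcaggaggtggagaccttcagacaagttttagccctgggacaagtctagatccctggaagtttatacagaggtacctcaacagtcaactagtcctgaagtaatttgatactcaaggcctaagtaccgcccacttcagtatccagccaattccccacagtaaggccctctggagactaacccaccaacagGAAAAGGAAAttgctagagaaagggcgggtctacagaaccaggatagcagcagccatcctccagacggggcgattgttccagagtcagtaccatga
Ifitm3: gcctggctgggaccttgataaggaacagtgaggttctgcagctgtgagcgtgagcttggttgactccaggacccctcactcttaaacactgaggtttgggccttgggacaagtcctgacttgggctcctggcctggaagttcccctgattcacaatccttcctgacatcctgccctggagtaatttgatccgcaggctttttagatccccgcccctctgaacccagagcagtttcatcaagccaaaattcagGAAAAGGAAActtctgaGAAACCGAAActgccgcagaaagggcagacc
Ifitm2 holds 1 match, starting at base 205 of the window, and Ifitm3 holds 2, at bases 253 and 270. This core occurs in 3.44% of the 32851 RefSeq promoter windows, in 2 of the 6 IFITM promoters and in 13 of the 20 type I interferon genes with a window. These 13 had a median difference of 0.15 and the 7 without a match 0.14. A match is a description of the letters and not evidence of binding.

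Most other interferon-induced transcripts overlapped between the groups. On the type I interferon list 22 of 27 genes had a higher mean, against 55.0% of all genes, and 7 were higher in both arrays, near the 25.3% of all genes. The median difference was 0.15. The list median was -0.17 in PBS array 1 and 0.41 in PBS array 2, with 0.32 and 0.22 after NDP-MSH, so both treated arrays lay between the untreated ones. Interferon gamma response genes spread further, with medians of -0.24 and 0.57 after PBS and 0.36 and 0.29 after NDP-MSH. Of these 18 genes, 14 had a higher mean and 2 were higher in both arrays. The median differences of both lists, each 0.15, turned to -0.17 and -0.20 without wild-type PBS 1 and were 0.37 and 0.53 without wild-type PBS 2. Socs1, a feedback inhibitor of interferon signalling, lay at -0.02 and 0.02 after PBS and at 0.38 and 0.36 after NDP-MSH (0.37 ± 0.23, adjusted p = 0.536). Each SE also holds the spread inside the e/e groups, and Socs1 lay at -0.31 and 0.53 in the e/e PBS arrays. The interferon gamma list medians of these 2 arrays were -1.56 and 0.67. The guanylate-binding protein gene Gbp6 overlapped, at -0.12 and 0.06 against 0.05 and 0.20 (0.15 ± 0.09, adjusted p = 0.517). Ifit3, of the type I list, lay at -0.26 and 0.02 against 0.09 and 0.04 (0.18 ± 0.10, adjusted p = 0.484). Ifit1bl1, a gene of the antiviral Ifit cluster, had the smallest p of its list. It lay at 0.02 and 0.12 after PBS and at 0.72 and 0.84 after NDP-MSH (0.71 ± 0.12, adjusted p = 0.123), with no overlap and short of the threshold.

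The PBS arrays lay far apart in genes of antigen presentation and of activated microglia, less so in T cell genes, and none of these 4 lists held a gene past the limma threshold. At an unadjusted p under 0.05 the counts were 0 of 15 for MHC class I, 2 of 10 for MHC class II, 0 of 26 for activated microglia and 1 of 22 for T cells, against 12.3% of all genes. These limma p-values also rest on the spread inside the e/e groups. The e/e PBS arrays had list medians of -0.61 and 0.21 for MHC class I and -0.83 and 0.18 for activated microglia. The low counts therefore do not describe the wild-type arrays alone. MHC class I pathway genes had list medians of -0.12 and 0.46 after PBS and 0.26 and 0.18 after NDP-MSH. In both treated arrays 0 of 15 were higher and 1 lower, against 25.3% and 18.9% of all genes. Psme2, a proteasome activator subunit, lay at -0.04 and 0.04 after PBS and at -0.15 and -0.10 after NDP-MSH (-0.12 ± 0.11, adjusted p = 0.687). Psmb10, an immunoproteasome subunit, lay at -0.15 and 0.41 against 0.26 and 0.46 (0.23 ± 0.25, adjusted p = 0.743), with overlap. MHC class II genes, which present antigen to helper T cells, were lower in 7 of 10, with a median difference of -0.29, list medians of 0.21 and 0.66 after PBS and 0.34 and -0.06 after NDP-MSH, 1 gene lower in both arrays and 1 higher. That median ranged from -0.43 (without wild-type PBS 1) to -0.05 (without wild-type PBS 2). The pair with an unadjusted p under 0.05 had opposite signs. H2-Ob, a chain of the peptide-loading modulator DO, lay at 0.44 and 0.21 against -0.08 and 0.06 (-0.33 ± 0.10, adjusted p = 0.296). H2-DMb1, a chain of the peptide exchanger DM, lay at -0.01 and 0.04 against 0.34 and 0.18 (0.24 ± 0.09, adjusted p = 0.338). Activated microglia and macrophage genes were higher in 11 of 26 and lower in 15, and their median of -0.15 ranged from -0.28 (without wild-type NDP-MSH 1) to 0.10 (without wild-type NDP-MSH 2). Lpl, the lipoprotein lipase of phagocytes, lay at 0.03 and -0.12 after PBS and at 0.10 and 0.21 after NDP-MSH (0.20 ± 0.09, adjusted p = 0.435). Axl, a receptor kinase for dying cells, lay at 0.20 and 0.53 against 0.25 and -0.06 (-0.27 ± 0.15, adjusted p = 0.501) and overlapped. T cell genes were higher in 17 of 22, 8 of them in both arrays, where 25.3% of all genes were. Their list medians were -0.02 and 0.10 after PBS and 0.15 and 0.06 after NDP-MSH. Their median difference of 0.09 ranged from 0.04 (without wild-type NDP-MSH 1) to 0.17 (without wild-type PBS 2). Among them the costimulatory receptor gene Cd28 lay at 0.08 and -0.10 after PBS and at 0.35 and 0.33 after NDP-MSH (0.35 ± 0.10, adjusted p = 0.257), and the CD8 chain gene Cd8b1 overlapped, at 0.08 and -0.07 against 0.07 and 0.51 (0.28 ± 0.16, adjusted p = 0.497).

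Of 19 neutrophil genes 5 were higher in both arrays, and of 18 resting microglia genes 5, near the 25.3% of all genes. Of 12 inflammatory CC chemokine and receptor genes 6 were. The genes named below have the smallest p of their lists. Ly6g, the surface marker of neutrophils, lay at -0.03 and -0.06 after PBS and at 0.34 and 0.34 after NDP-MSH (0.39 ± 0.07, adjusted p = 0.159), while 11 of 19 neutrophil genes were higher with a median of 0.06 that ranged from 0.01 (without wild-type NDP-MSH 1) to 0.22 (without wild-type NDP-MSH 2). Mmp8, the neutrophil collagenase, lay at 0.20 and -0.13 against 0.80 and 0.39 (0.56 ± 0.19, adjusted p = 0.325). Fcrls, a gene of resting microglia, lay at -0.45 and -0.96 after PBS and at 0.06 and 0.31 after NDP-MSH (0.89 ± 0.21, adjusted p = 0.228). Sparc, a matricellular protein gene on the same microglia list, was lower, from 0.06 and 0.08 to -0.23 and -0.39 (-0.38 ± 0.08, adjusted p = 0.188). Of the 18 genes of resting microglia 12 were higher, 5 of them in both arrays, with a median of 0.10 that ranged from -0.05 (without wild-type PBS 1) to 0.25 (without wild-type PBS 2). Inflammatory CC chemokine and receptor genes were higher in 8 of 12 with a median of 0.14 that ranged from 0.01 (without wild-type NDP-MSH 1) to 0.30 (without wild-type NDP-MSH 2). Ccl8, a monocyte attractant, lay at 0.33 and -0.03 after PBS and at 0.74 and 0.39 after NDP-MSH (0.42 ± 0.16, adjusted p = 0.36), and the receptor gene Ccr1 at -0.12 and 0.12 against 0.58 and 0.18 (0.38 ± 0.20, adjusted p = 0.466). Of 13 T cell-attracting chemokine genes 8 were lower. Cxcl12, made by vessels and meninges, lay at -0.12 and -0.24 against -0.03 and 0.13 (0.24 ± 0.13, adjusted p = 0.497). Cxcl13, the B cell attractant, spread widely within groups, at 1.88 and 1.05 after PBS and 1.22 and -0.57 after NDP-MSH, and the groups overlapped.

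Some members of the lists for the brain's borders and for activated vessels were among the higher genes with the smallest p, short of the threshold. Lyve1, the hyaluronan receptor of lymphatic vessels and perivascular macrophages, lay at -0.24 and -0.37 after PBS and at 0.45 and 0.57 after NDP-MSH (0.81 ± 0.12, adjusted p = 0.0887). Cbr2, a carbonyl reductase of the same macrophages, lay at -0.14 and -0.33 against 0.41 and 0.71 (0.80 ± 0.13, adjusted p = 0.107). Both were separated by more than the spread within either group, and the rule that picked them asked for groups without overlap. On the border macrophage list 14 of 21 genes were higher, 8 in both arrays, where 25.3% of all genes were. The list median of 0.14 ranged from 0.02 (without wild-type NDP-MSH 1) to 0.19 (without wild-type NDP-MSH 2). Pkp2, a plakophilin of desmosomes, lay at -0.10 and -0.24 after PBS and at 0.40 and 0.60 after NDP-MSH (0.66 ± 0.10, adjusted p = 0.0752). That adjusted p was the smallest among the uncalled genes at least 1.5-fold higher in both arrays that the naming rule ranked. Scnn1a, the alpha subunit of the epithelial sodium channel, lay at -0.07 and -0.28 against 0.56 and 0.46 (0.68 ± 0.11, adjusted p = 0.11). The arachnoid and epithelial list that holds both had a median of 0.03, near that of all genes, and -0.01 without wild-type NDP-MSH 2. Which cells carry Pkp2 and Scnn1a in this tissue was not tested.

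Meningeal fibroblast genes were higher in 27 of 30, with a median of 0.15 that ranged from 0.08 (without wild-type PBS 2) to 0.25 (without wild-type PBS 1). In both arrays 8 were higher, a share near the 25.3% of all genes. Aldh1a2, the retinaldehyde dehydrogenase of the meninges, lay at 0.08 and -0.22 after PBS and at 0.50 and 0.83 after NDP-MSH (0.73 ± 0.20, adjusted p = 0.258). Dpp4, a membrane peptidase of these fibroblasts, lay at -0.17 and 0.02 against 0.30 and 0.37 (0.41 ± 0.11, adjusted p = 0.263). The fibroblast list median lay at 0.11 and -0.06 after PBS and at 0.03 and 0.27 after NDP-MSH, so the groups overlapped. Among vascular genes Lrg1, a secreted glycoprotein of inflamed vessels, lay at -0.04 and -0.12 after PBS and at 0.63 and 0.40 after NDP-MSH (0.60 ± 0.10, adjusted p = 0.117). Selp, which encodes P-selectin for leukocyte rolling and was named after its value was seen, lay at 0.33 and -0.36 against 1.31 and 0.98 (1.16 ± 0.31, adjusted p = 0.256). Mcam, an adhesion molecule of vessel walls, was lower, from -0.01 and 0.01 to -0.38 and -0.57 (-0.47 ± 0.11, adjusted p = 0.203). Of 20 endothelial activation genes 13 were higher, 8 in both arrays (25.3% of all genes were), with a median of 0.06 (0.11 without wild-type NDP-MSH 2).

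Transport genes of the blood-brain barrier were mixed, with 15 of 22 higher and a median of 0.07 (0.03 without wild-type NDP-MSH 1). Slco1a4, an organic anion transporter of brain endothelium, lay at 0.46 and 0.33 after PBS and at 0.08 and -0.32 after NDP-MSH (-0.52 ± 0.14, adjusted p = 0.248). Cav1, the coat protein of endothelial caveolae, lay at -0.17 and -0.33 against 0.15 and 0.06 (0.35 ± 0.09, adjusted p = 0.238). The transporter was low and the caveolar gene high in both treated arrays, and neither passed the threshold.

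Astrocyte genes were lower after NDP-MSH. Agt, which encodes angiotensinogen and is made by astrocytes in brain, lay at 0.32 and 0.25 after PBS and at -0.51 and -0.61 after NDP-MSH. Both treated arrays were low without overlap, and Agt fell by 0.84 ± 0.09 (limma, adjusted p = 0.0235). Of 19 astrocyte genes measured 15 were lower, 11 of them in both arrays, where 18.9% of all genes were. Their median was -0.17, and it ranged from -0.18 to -0.16 without 1 wild-type array. Slc4a4, the sodium bicarbonate cotransporter of astrocytes, lay at 0.06 and 0.32 after PBS and at -0.31 and -0.48 after NDP-MSH (-0.59 ± 0.15, adjusted p = 0.241). The reactive astrocyte list was split, 18 of 31 higher and 13 lower. Its B3gnt5, a glycosyltransferase, lay at -0.12 and 0.04 against -0.90 and -0.65 (-0.74 ± 0.11, adjusted p = 0.0911), and its Ptgs2, the inducible cyclooxygenase, at -0.09 and -0.61 against 0.22 and 0.14 (0.53 ± 0.16, adjusted p = 0.292). The 8 genes of the list of Bergmann glia, the astrocytes of the cerebellum, and cerebellar interneurons all had a lower mean, 5 of them in both arrays, with a median of -0.43 that ranged from -0.52 (without wild-type PBS 1) to -0.26 (without wild-type PBS 2). The part of that tissue in the astrocyte result was not tested.

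Myelin genes were lower in 19 of 22, and 16 were lower in both arrays, where 18.9% of all genes were. The list median lay at -0.04 and -0.01 after PBS and at -0.26 and -0.34 after NDP-MSH, with a median difference of -0.24 that ranged from -0.29 to -0.20 without 1 wild-type array. Tspan2, a tetraspanin of maturing oligodendrocytes, lay at -0.05 and 0.05 after PBS and at -0.54 and -0.56 after NDP-MSH (-0.55 ± 0.09, adjusted p = 0.121). Aspa, the oligodendrocyte enzyme that splits N-acetylaspartate, lay at 0.11 and 0.01 against -0.46 and -0.45 (-0.51 ± 0.11, adjusted p = 0.188). Mog, shown because its product was the immunizing antigen, lay at -0.07 and 0.06 against -0.53 and -0.39 (-0.45 ± 0.10, adjusted p = 0.207). None of the 22 passed in limma, 9 had an unadjusted p under 0.05 (12.3% of all genes did), and Tspan2 passed only when genes were limited to a signal of 8 or above (adjusted p = 0.0482). Genes of oligodendrocyte precursors, the cells from which myelin is renewed, were lower in 8 of 14 with a median of -0.10 that shrank to -0.004 without wild-type NDP-MSH 2. Ptprz1, a receptor phosphatase of these cells, lay at 0.00 and 0.17 after PBS and at -0.08 and -0.22 after NDP-MSH (-0.24 ± 0.10, adjusted p = 0.382), and Bcas1, a marker of newly forming oligodendrocytes, at 0.09 and -0.02 against -0.11 and -0.11 (-0.15 ± 0.08, adjusted p = 0.462). Of 28 hindbrain genes 17 were lower, with a median of -0.05 that ranged from -0.08 (without wild-type NDP-MSH 2) to -0.02 (without wild-type NDP-MSH 1). Slc6a5, the glycine transporter of glycinergic neurons, lay at -0.004 and -0.42 after PBS and at -1.53 and -1.27 after NDP-MSH (-1.19 ± 0.20, adjusted p = 0.115), and the glycine receptor gene Glra1 at 0.00 and -0.14 against -0.62 and -1.42 (-0.95 ± 0.28, adjusted p = 0.285). The part of these regions in the myelin values was not tested.

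**Figure D2:**
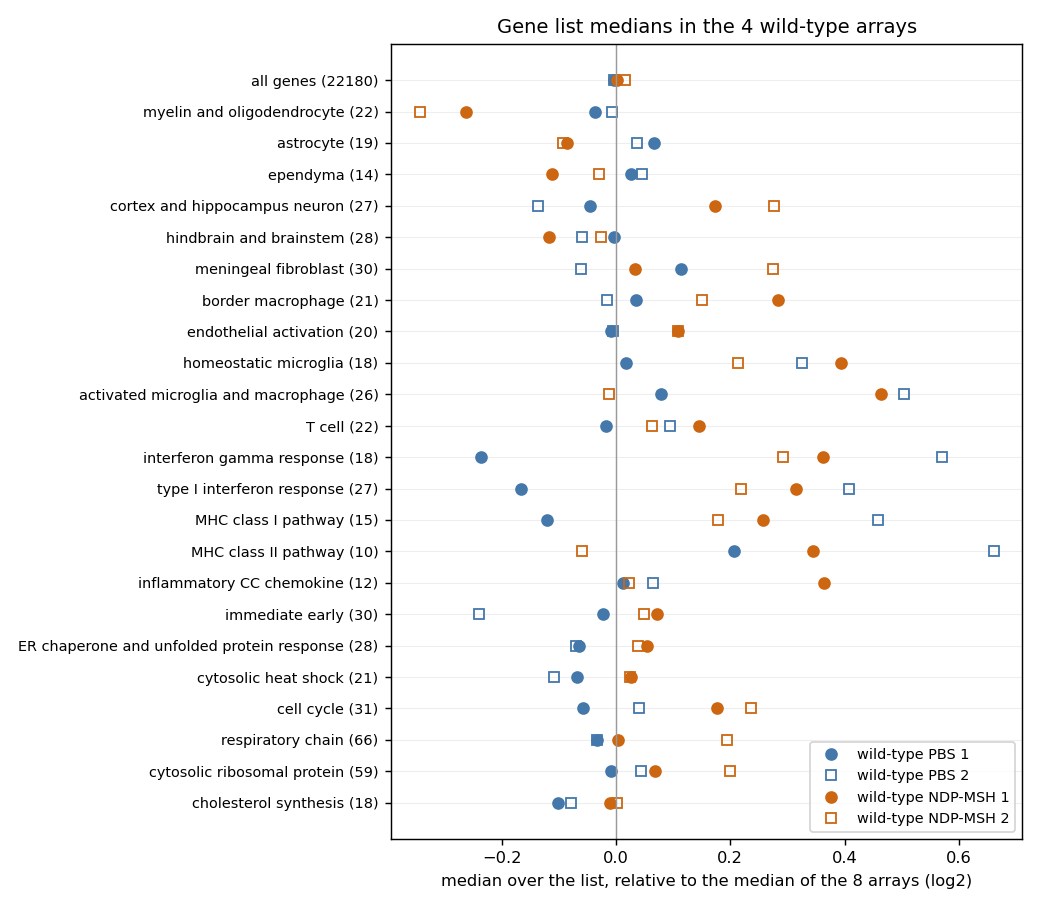
Median of each gene list in the 4 wild-type arrays, in log2 relative to the median of the 8 arrays, with the number of genes measured in brackets (blue PBS, orange NDP-MSH, filled replicate 1, open replicate 2). The myelin, astrocyte and ependyma medians of both NDP-MSH arrays lie left of both PBS arrays. The cortex, border macrophage, endothelial activation, immediate early, ER chaperone, heat shock and cell cycle medians lie right. So do the respiratory chain, ribosomal and cholesterol medians and, by little, that of all genes. The interferon gamma medians of PBS 1 and 2 lie farthest apart, at -0.24 and 0.57.

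Some falls are in genes known from cerebellar neurons that the regional lists did not hold. Pvalb, the calcium buffer parvalbumin of fast-spiking interneurons and Purkinje cells, lay at 0.02 and 0.16 after PBS and at -0.79 and -0.76 after NDP-MSH and fell by 0.86 ± 0.08 (limma, adjusted p = 0.0187). Hes3, a transcriptional repressor of the Hes family, lay at 0.00 and 0.01 against -1.57 and -1.42 and fell by 1.504 ± 0.18 (adjusted p = 0.0364). Icmt, the methyltransferase that finishes prenylated proteins such as Ras, lay at 0.07 and 0.15 against -0.70 and -0.76 and fell by 0.84 ± 0.07 (adjusted p = 0.0122). Mtss1, a membrane-bending actin regulator of Purkinje dendrites, fell by 0.68 ± 0.09 (adjusted p = 0.049), from -0.05 and 0.05 to -0.65 and -0.72. These 4 belong to a set of 11 genes known in cerebellar neurons that was written after their values were seen. Setting all 11 aside as well left 14 genes past the threshold, Ifitm2 among them.

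The falls that remain are in genes on none of the lists. Cep76, a centrosomal protein that restrains centriole duplication, lay at -0.09 and 0.34 after PBS and at -1.28 and -1.37 after NDP-MSH and fell by 1.45 ± 0.15 (limma, adjusted p = 0.0232). Aldh1a1, a retinaldehyde dehydrogenase that makes retinoic acid, lay at 0.11 and 0.21 against -0.54 and -0.71 and fell by 0.79 ± 0.08 (adjusted p = 0.0263). Its relative Aldh1a2 was higher in the same arrays. Kcng4, a silent subunit that tunes voltage-gated potassium channels, lay at -0.01 and 0.03 against -0.97 and -0.88 and fell by 0.93 ± 0.08 (adjusted p = 0.0146). Dpf3, a histone reader of the BAF chromatin remodelling complex, lay at 0.00 and -0.10 against -0.95 and -0.94 and fell by 0.89 ± 0.10 (adjusted p = 0.0263). In each of these 4 the gap between the groups exceeded the spread inside them, which selection by a small p favours.

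Signalling and membrane genes formed the rest of the falls. Pld5, a member of the phospholipase D family, lay at -0.06 and -0.08 after PBS and at -1.02 and -1.25 after NDP-MSH and fell by 1.07 ± 0.10 (limma, adjusted p = 0.019). Nrep, a small protein gene linked to neuronal regeneration, lay at -0.23 and -0.08 against -1.23 and -1.18 and fell by 1.05 ± 0.11 (adjusted p = 0.0235). Cnksr3, a scaffold of the Ras pathway, lay at -0.09 and 0.09 against -0.98 and -0.88 and fell by 0.93 ± 0.11 (adjusted p = 0.0318). The adaptor genes Plekhd1 and Kank2 fell by 0.98 each, with adjusted p of 0.0364 and 0.0497, and Kank2 lost its call under 14 of 17 alternatives. Steap2, a metalloreductase, fell by 0.76 ± 0.09, Tspan9, a tetraspanin, by 0.68 ± 0.08 and Sbk1, a serine kinase of brain, by 0.66 ± 0.09, with adjusted p of 0.0314, 0.0337 and 0.049. Sbk1 lost its call under 13 of 16 alternatives. In all 17 falls both NDP-MSH arrays lay below both PBS arrays, which selection by a small p favours, so it adds no separate evidence.

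Genes of cortical and hippocampal neurons mostly had a higher mean. Of 27 cortex and hippocampus genes 21 were higher, 18 in both arrays (55.0% and 25.3% of all genes), with a median of 0.31 that ranged from 0.27 to 0.37 without 1 wild-type array. Neurod6, a transcription factor of cortical excitatory neurons, lay at -0.23 and -0.30 after PBS and at 0.40 and 0.57 after NDP-MSH (0.75 ± 0.18, adjusted p = 0.227). Lct, named for intestinal lactase and a member of this joint cortex and hippocampus list, lay at -0.35 and -0.16 against 0.19 and 0.54 (0.62 ± 0.13, adjusted p = 0.193). Of 19 striatal genes 12 were higher but 1 in both arrays, and their median of 0.08 ranged from -0.09 (without wild-type PBS 2) to 0.33 (without wild-type PBS 1) and turned negative after quantile normalization. The striatal receptor gene Gpr6 lay at 0.54 and -0.05 against 0.42 and 0.78 (0.35 ± 0.20, adjusted p = 0.509) and the phosphodiesterase gene Pde1b at 0.40 and 0.00 against 0.33 and 0.56 (0.24 ± 0.16, adjusted p = 0.57), both with overlap. Of 15 genes of thalamus and habenula 12 were lower, 6 in both arrays (18.9% of all genes were). Their median of -0.11 ranged from -0.30 (without wild-type NDP-MSH 1) to -0.06 (without wild-type NDP-MSH 2). Prkcd, a kinase gene of thalamic neurons, lay at 0.52 and 0.86 against 0.36 and -0.56 (-0.79 ± 0.38, adjusted p = 0.444), and Slc17a6, the vesicular glutamate transporter there, at 0.18 and -0.03 against -0.03 and -0.66 (-0.42 ± 0.19, adjusted p = 0.428), with overlap. Among genes outside every list Khdrbs3, a splicing regulator of neurons, lay at -0.46 and -0.49 against 0.19 and 0.22 (0.68 ± 0.12, adjusted p = 0.117). Htr1a, an inhibitory serotonin receptor dense in hippocampus, lay at -0.18 and -0.19 against 0.35 and 0.54 (0.63 ± 0.13, adjusted p = 0.188). Both treated arrays of Neurod6, Lct, Khdrbs3 and Htr1a were high, and none of these passed. Syt17 of the synaptotagmin family, the synaptic scaffold gene Lin7b, the zinc finger gene Zfp831, the actin-binding Tmsb10 and the envelope-derived Syna were chosen by the same rule, with differences between 0.67 and 0.95 and adjusted p between 0.184 and 0.193. Cerebellar medians were low in the same 2 arrays, and their part in these values was not tested.

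Genes of the endoplasmic reticulum (ER) that fold secreted proteins had small differences upward. The list median lay at -0.06 and -0.07 after PBS and at 0.06 and 0.04 after NDP-MSH, 21 of 28 genes had a higher mean and 17 were higher in both arrays (55.0% and 25.3% of all genes), and the median difference was 0.13, ranging from 0.12 to 0.15 without 1 wild-type array. Creld2, an ER-resident protein induced when unfolded proteins accumulate, lay at -0.21 and -0.14 after PBS and at 0.25 and 0.32 after NDP-MSH (0.46 ± 0.08, adjusted p = 0.152). Sdf2l1, a partner of the ER chaperone BiP, lay at -0.18 and -0.07 against 0.36 and 0.53 (0.57 ± 0.14, adjusted p = 0.228). Hspa5, which encodes BiP, lay at -0.14 and -0.08 against 0.05 and 0.10 (0.19 ± 0.08, adjusted p = 0.407). All 3 were separated without passing the threshold. In e/e mice 21 of the 28 genes were lower after NDP-MSH and 17 were lower in both arrays, where 14.2% of all genes were.

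Promoters of Creld2 and Hspa5 are shown because many genes of this response share the ER stress response element. Capitals mark matches to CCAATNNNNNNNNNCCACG, searched on both strands, in RefSeq windows of GRCm38.p6 at chr15:88819396-88819695 for Creld2 and chr2:34771840-34772139 for Hspa5, both on the plus strand.
Creld2: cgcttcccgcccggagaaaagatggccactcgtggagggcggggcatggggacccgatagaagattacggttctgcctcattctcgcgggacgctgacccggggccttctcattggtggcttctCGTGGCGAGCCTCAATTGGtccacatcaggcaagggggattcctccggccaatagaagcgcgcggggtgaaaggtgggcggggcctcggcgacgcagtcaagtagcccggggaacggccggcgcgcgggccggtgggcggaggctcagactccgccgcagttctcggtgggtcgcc
Hspa5: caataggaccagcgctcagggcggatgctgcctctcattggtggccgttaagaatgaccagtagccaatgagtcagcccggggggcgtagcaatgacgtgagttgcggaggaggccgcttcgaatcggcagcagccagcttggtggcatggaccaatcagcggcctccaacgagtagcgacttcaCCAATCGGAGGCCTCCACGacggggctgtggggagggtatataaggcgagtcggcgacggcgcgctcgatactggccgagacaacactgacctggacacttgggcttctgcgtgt
Creld2 holds the element on the minus strand from base 125 and Hspa5 on the plus strand from base 186. It occurs in 0.119% of all windows and in 9 of the 25 listed ER genes with a window. The 9 genes with it had a median difference of 0.11 and the 16 without it 0.15, so the group with the element did not have the larger median. The window of Sdf2l1 holds no match to these letters.

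Cytosolic heat shock genes were higher in 16 of 21, 13 in both arrays (55.0% and 25.3% of all genes), with a median of 0.16 that ranged from 0.15 to 0.18 without 1 wild-type array. Hsph1, a disaggregase partner of Hsp70, lay at -0.28 and -0.52 after PBS and at 0.03 and 0.02 after NDP-MSH (0.43 ± 0.12, adjusted p = 0.257). Cirbp, the RNA-binding protein that rises when cells cool, was lower, from 0.53 and 0.47 to -0.03 and 0.03 (-0.50 ± 0.13, adjusted p = 0.248). Body temperature was not among the labels used here. Neither gene passed.

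Melanocortin receptor transcripts and early genes downstream of cAMP did not pass the threshold. Mc1r, the receptor of pigment cells, lay at -0.03 and 0.00 after PBS and at -0.14 and 0.07 after NDP-MSH (-0.02 ± 0.09, adjusted p = 0.94). Mc3r and Mc4r, the receptors of hypothalamic energy control, differed by -0.06 ± 0.09 and 0.19 ± 0.08, Mc2r, the adrenal receptor for ACTH, by 0.05 ± 0.08, and Mc5r, the receptor of exocrine glands, by 0.47 ± 0.18, with adjusted p between 0.367 and 0.836. Nr4a1, the founding NR4A member, lay at 0.22 and -0.34 against 0.08 and 0.04 (0.12 ± 0.30, adjusted p = 0.906), and its groups overlapped. Nr4a2 lay at -0.14 and -0.40 against 0.26 and 0.22 (0.51 ± 0.11, adjusted p = 0.193) and Nr4a3 at -0.27 and -0.22 against 0.23 and -0.10 (0.31 ± 0.12, adjusted p = 0.355). Of 30 immediate early genes 25 were higher, 17 in both arrays (55.0% and 25.3% of all genes), with a median of 0.30 that dropped to 0.11 without wild-type PBS 2. Fosl2, an AP-1 subunit, lay at -0.29 and -0.43 against 0.16 and 0.03 (0.46 ± 0.10, adjusted p = 0.203). Of 24 genes on the wider list of cAMP targets 16 were higher with a median of 0.05 that ranged from 0.01 (without wild-type PBS 2) to 0.12 (without wild-type NDP-MSH 2).

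Genes of cell division had small differences upward. Of 31 genes 28 had a higher mean and 20 were higher in both arrays, against 55.0% and 25.3% of all genes, with a median of 0.21 that ranged from 0.18 to 0.26 without 1 wild-type array. The list median lay at -0.06 and 0.04 after PBS and at 0.18 and 0.24 after NDP-MSH. Kif23, a kinesin of the cleavage furrow, lay at -0.08 and -0.01 after PBS and at 0.38 and 0.48 after NDP-MSH (0.48 ± 0.07, adjusted p = 0.09), and Tpx2, a spindle assembly factor, at -0.14 and 0.06 against 0.47 and 0.32 (0.43 ± 0.10, adjusted p = 0.203). Only 1 of the 31 genes could be placed at a signal of 8 or above.

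Genes of the respiratory chain were higher in 57 of 66 and those of cytosolic ribosomes in 49 of 59, against 55.0% of all genes. Their medians of 0.14 and 0.13 rested mostly on 1 array: the respiratory list lay at -0.03 in both PBS arrays, at 0.00 in the first wild-type NDP-MSH array, and at 0.19 in the second, and the ribosomal list at -0.01 and 0.04 after PBS and 0.07 and 0.20 after NDP-MSH. Leaving out wild-type NDP-MSH 2 reduced the medians to 0.05 each, and without wild-type NDP-MSH 1 they were 0.22 and 0.20. The respiratory subunit genes Cox7b and Uqcr11 differed by 0.40 ± 0.11 and 0.32 ± 0.09 and the ribosomal protein genes Rpl8 and Rps28 by 0.30 ± 0.08 and 0.32 ± 0.10, with adjusted p between 0.263 and 0.302. Cholesterol synthesis genes were higher in 15 of 18, 10 of them in both arrays (25.3% of all genes were), with a median of 0.11 (0.07 without wild-type PBS 1). Nsdhl, a demethylating enzyme of that pathway, lay at -0.15 and -0.24 after PBS and at 0.20 and 0.11 after NDP-MSH (0.35 ± 0.10, adjusted p = 0.265), and Msmo1, a sterol oxidase, at -0.30 and -0.26 against -0.05 and 0.00 (0.26 ± 0.09, adjusted p = 0.331). Hypoxia and glycolysis genes were higher in 12 of 16 with a median of 0.12 (0.20 without wild-type NDP-MSH 2), among them Egln3, an oxygen-sensing hydroxylase, at 0.07 and -0.25 against 0.38 and 0.45 (0.50 ± 0.12, adjusted p = 0.238), and Bnip3, a mitophagy receptor, at -0.04 and -0.10 against 0.24 and 0.30 (0.34 ± 0.08, adjusted p = 0.238). None of the genes of these 4 lists passed in limma. The unadjusted p was under 0.05 for 16.7% of respiratory, 16.9% of ribosomal, 22.2% of cholesterol and 37.5% of hypoxia genes. These were 11, 10, 4 and 6 genes, against 12.3% of all genes.

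**Figure D3:**
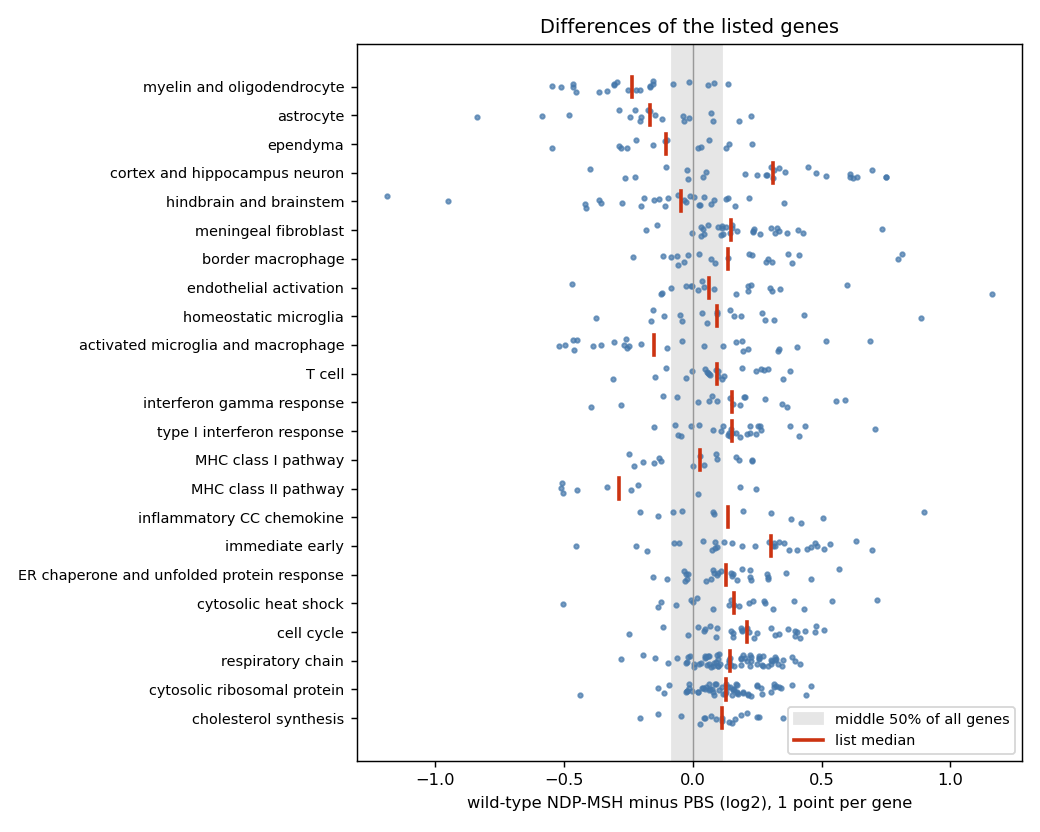
Wild-type NDP-MSH minus PBS differences on the log2 scale, 1 point per listed gene, with list medians as red bars and the middle 50% of all genes, from -0.08 to 0.11, shaded. Myelin, astrocyte, MHC class II, activated microglia and ependyma medians lie left of the shading, at -0.24, -0.17, -0.29, -0.15 and -0.10. The cortex and immediate early medians lie farthest right, at 0.31 and 0.30.

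A size criterion that does not use the fit was also applied. Outside the regional lists 91 genes, or 0.412%, had both NDP-MSH arrays above both PBS arrays with a mean difference of at least 1.5-fold, and 145, or 0.657%, had both below. The means of 9 further genes differed by that much with overlapping arrays. Of the 91, 27 were on a list, 7 of them cortical or hippocampal neuron genes, and 64 were on none. Of the 145, 8 were on a list and 137 on none. After quantile normalization the split was 151 higher and 128 lower. At 2-fold 3 genes were higher and 14 lower. With only the genes of a signal of 8 or above, 25 were higher and 46 lower. The total of 236 became 600 without wild-type NDP-MSH 1, 209 without wild-type NDP-MSH 2, 498 without wild-type PBS 1 and 247 without wild-type PBS 2. With 1 array left in a group the criterion is looser, since only that array must lie beyond the other group. Totals without 1 array are therefore not directly comparable with 236, and the part of each array was not tested.

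In e/e mice, which lack the working receptor, the 17 genes that fell had e/e differences with a median of -0.04 and ranged from -0.34 (Cep76) to 0.07 (Pvalb), and 2 of the 17 were lower in both e/e NDP-MSH arrays, as were 14.2% of all genes. None of the 17 was higher in both, as were 15.8% of all genes. Among the 91 genes that were higher in wild-type mice, 4 were higher and 17 lower in both e/e arrays, while 52 had a higher and 39 a lower e/e mean, with a median of 0.08. Among the 145 that were lower, 6 were higher and 16 lower in both e/e arrays, with a median of -0.02. Ifitm2 had differences of opposite sign: the e/e PBS arrays lay at 0.06 and 0.22 and the e/e NDP-MSH arrays at -0.33 and -0.55, a difference of -0.58 ± 0.13 against 1.02 in wild-type mice. The difference between the effects was 1.60 ± 0.18 (limma, adjusted p = 0.136). All 27 type I interferon, 18 interferon gamma and 26 activated microglia genes also had a lower e/e mean after NDP-MSH, against 10249 of all 22180 genes. In both e/e arrays 18, 14 and 19 of them were lower. The interferon gamma list medians lay at -1.56 and 0.67 in the e/e PBS arrays and at -1.84 in both e/e NDP-MSH arrays. A lower e/e value is thus not particular to Ifitm2. No gene passed the test of the difference, 0.0% of 22180 and a smallest adjusted p of 0.126, while 813 genes had a larger and 898 a smaller effect in wild-type mice at an unadjusted p under 0.05. The e/e arrays also differ in sex-linked signal: Eif2s3y lay at -0.02 and 2.04 after PBS and at 2.78 and 2.87 after NDP-MSH. High values of this Y-linked gene thus mark 3 of the 4 e/e arrays, both treated ones included, and the part of sex in the difference between genotypes was not tested.

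**Figure D4:**
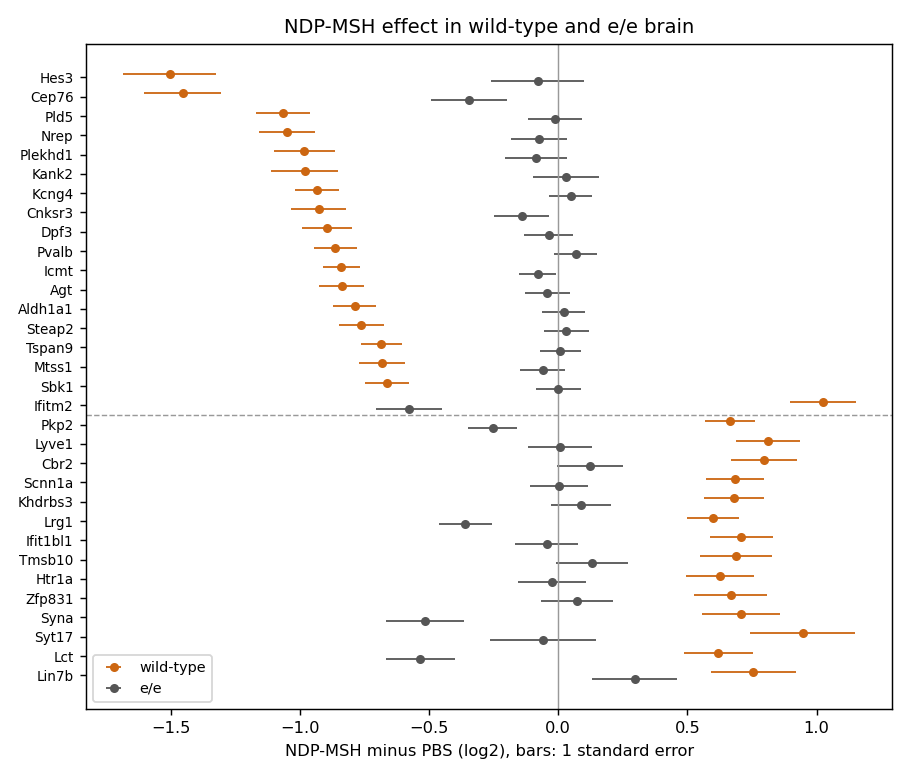
NDP-MSH minus PBS differences on the log2 scale in wild-type (orange) and e/e mice (grey) for the 18 called genes, above the dashed line, and the 14 higher genes short of the threshold, below it, with bars of 1 SE from the fit. The orange points of the falls lie between -1.504 and -0.66 while the grey ones lie between -0.34 and 0.07, and Ifitm2 lies at 1.02 and -0.58.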

How the data were processed

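Brain RNA was measured on 8 single-colour Affymetrix arrays in 4 groups of 2, per the labels' protocols. The authors deposited 1 log2 value per probe set and array, each row centred on its median over the 8 arrays. Neither the log base nor the normalization is given in these sources, and base 2 is assumed. Depth is not defined for arrays, and 2 arrays a group limit the precision. Of 33793 probe sets 23521 carry 1 gene symbol, 1814 several and 8458 none. Those with 1 symbol were averaged to 22180 genes. limma 3.58.1 in R 4.3.3 fitted 1 coefficient per group over all 8 arrays (lmFit, eBayes), with two-sided tests Benjamini-Hochberg adjusted across the 22180 genes, and calls at an adjusted p under 0.05. The steps were tested on simulated data. Lists are described by counts and medians beside those of all genes, with no test.

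Genes were named by a rule. Outside the regional lists, predicted, Rik, clone, small RNA, olfactory and vomeronasal receptor, immunoglobulin and T cell receptor segment symbols were first left out. The rule then takes up to 15 called genes per direction by size. These are filled up to 15 with the smallest p among uncalled genes at least 1.5-fold apart in both arrays. It adds the called and the 2 smallest-p members of each list described, the melanocortin receptors, Nr4a1 and 6 regional markers. From the lists set aside the text names the markers alone, and from the pan-neuronal list no gene. Selp, Ifitm3, Mog, Hspa5, Spink10, Mtss1 and Sbk1 fall outside it and were named after their values were seen. The comparison, its gene lists and the rule were chosen with earlier results of these data known. Alternatives changed the replicate block, array weights, scaling, probe sets, signal, fold, moderation and arrays left out. Motifs were searched in RefSeq promoter windows.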

Additional observations from a re-analysis of the deposited data

Results flagged for a closer look

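In 8 of the genes named above, each called or at least 1.5-fold apart in wild-type mice, both wild-type NDP-MSH arrays lay on one side of the PBS arrays and both e/e NDP-MSH arrays on the other side of theirs. The difference between the effects, wild-type minus e/e on the log2 scale, was 1.60 for Ifitm2, 1.72 for Selp, 1.57 for Ifitm3, 1.22 for Syna, 1.15 for Lct, 0.96 for Lrg1, 0.92 for Pkp2 and -1.61 for Slc6a5. None passed the limma test of that difference, with adjusted p of 0.136, 0.457, 0.532, 0.343, 0.325, 0.248, 0.241 and 0.343 in that order. Sex-linked signal differs between the e/e arrays, and its part was not tested. All 27 type I interferon genes and all 18 interferon gamma genes had a lower e/e mean after NDP-MSH, so that side is not particular to the genes named here. When every probe set was fitted, 3 that carry no symbol or several passed the threshold, and all 3 fell, with differences between -1.82 and -0.75.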

How the results depend on the processing

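The 39 genes past the threshold became 14 with the replicate block, 20 after quantile normalization, 5 with the 4 wild-type arrays alone, 22 over all probe sets, and 0 to 49 without 1 array. The 18 outside the regional lists became 2 with the block (Icmt and Kcng4), 8 after quantile normalization, 1 with the wild-type arrays alone and 28 at a signal of 8 or above, 9 of them shared, and 0 to 26 without 1 array. Same-numbered arrays deviated with correlations of -0.1 in wild-type and 0.18 in e/e mice. With 1 correlation over all genes per genotype, whether same-numbered arrays were paired cannot be decided. The 236 genes past 1.5-fold became 1050 at 1.3-fold, 17 at 2-fold, 71 at a signal of 8 or above and 209 to 600 without 1 array. Quantile normalization raised the share of higher genes among them from 38.6% to 54.1%. No gene passed the difference between genotypes; 1 did after quantile normalization (Car8) and 0 to 7 without 1 array. Without 1 array in turn, differences that turned sign ranged from -0.04 (without wild-type NDP-MSH 1) to 6.59 for Gh, -0.13 to 0.08 (without wild-type NDP-MSH 1) for Mc1r, -0.12 to 0.00 (without wild-type NDP-MSH 1) for Mc3r, -0.01 (without wild-type PBS 1) to 0.11 for Mc2r, -0.05 (without wild-type PBS 1) to 0.51 for Psmb10 and -0.16 (without wild-type PBS 2) to 0.40 for Nr4a1.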
